A study of Mus musculus with 10 samples.

Results

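Titin, the Z-disc and the M-band form the scaffold that holds the sarcomere of heart muscle in register, and 9 genes of this scaffold were measured in hearts of *Nos1ap* null and wild-type mouse embryos: *Ttn*, *Mybpc3*, *Actn2*, *Ldb3*, *Csrp3*, *Nexn*, *Tcap*, *Myom1* and *Myom2*. They were chosen by gene name from the 23195 genes of the deposited table, and all 9 were found, each in 1 row. Poly-A RNA of the heart was sequenced in 10 male E13.5 embryos of the C57BL6/J strain, 5 of them wild type and 5 carrying the *Nos1ap* constitutive null genotype, and the labels list no treatment. The null animals were homozygous for the tm1d allele, in which exon 4 of *Nos1ap*, a gene linked to the QT interval of the electrocardiogram, was deleted with CMV-Cre and from which the *lacZ* and *neo* cassettes have been removed. The ES cells behind the allele came from a C57BL/6N line and the allele was then backcrossed to C57BL/6J. The comparison asked whether loss of *Nos1ap* changes gene expression in the embryonic heart.

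In a sarcomere, thin actin filaments are anchored at the Z-disc and thick myosin filaments are cross-linked at the M-band, and a single titin molecule reaches from the one to the other. Alpha-actinin ties actin and titin together at the Z-disc, telethonin caps the end of titin there, and myomesins bind titin and myosin at the M-band. Several of these proteins also act as stretch sensors, and mutations in their genes are known causes of dilated or hypertrophic cardiomyopathy.

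All 9 genes were present at nearly the same level in both genotypes. The mean of the null exceeded that of wild type by between 0.571% for *Nexn* and 4.78% for *Myom1*, and no member passed an absolute log2 ratio of 0.25. Of 13299 protein-coding genes that averaged 10 or more normalized counts, 6.68% passed that threshold. Of the 2622 that averaged 1000 or more, where 7 of the 9 members lie, 0.725% did. Summed, the 9 genes reached 96809 normalized counts in wild type and 99173 in the null, or 0.794% and 0.804% of all normalized counts. A normalized count is a read count divided by a factor for the size of its library.

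The mutation itself was plain in the data. *Nos1ap* stood at 147, 133, 126, 161 and 153 normalized counts in the 5 wild-type libraries and 42.3, 42.2, 44.4, 31.1 and 39.2 in the 5 null libraries. The groups did not overlap (two-sided exact permutation test, p = 0.00794, the smallest that 5 against 5 libraries can give), and the log2 fold change was -1.83 ± 0.12 (SE, limma, n = 5 and 5, adjusted p = 5.84e-09). The null libraries were not at 0, and which exons their reads came from cannot be read from gene-level values.

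Values of single libraries were not in the table, which holds 1 mean per genotype. For genes with a mean below 1000 they were recovered as whole-number counts whose scaled mean gives the deposited mean (see the description of the processing). A set was kept if it was the only one within a limited distance of equal normalized counts. Sets beyond that distance were not searched. The recovery reached *Tcap* and *Myom2* among the members. The libraries are numbered within a genotype from the highest size factor to the lowest, and these numbers are not those of the sample labels. Estimated totals ranged from 11328000 to 14023000 counts per library. Wild-type library 3 stood apart: its recovered neural markers summed to 496 normalized counts against 96.9 to 145 in the other 9 libraries, and *Myh3*, an embryonic skeletal muscle myosin, had 103 against 0.968 to 4.35. Heart muscle markers were abundant (*Myh7*, a heart and slow-muscle myosin, at 128162 and 129864), and their sum had a log2 ratio of 0.026. For the 7 abundant members only group means exist, so their differences come without a spread between animals and without a test. In bulk tissue, fewer cells of a type and less RNA per cell cannot be told apart.

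The promoters of 4 members are shown, because they hold a site for SRF or MEF2, the transcription factors best known for driving sarcomere genes. RefSeq promoters (GRCm38.p6) were found for *Ttn*, *Mybpc3*, *Actn2*, *Ldb3*, *Csrp3* and *Myom1*, 6 of the 9, with 8 start sites in all. *Nexn*, *Tcap* and *Myom2* had none. Each sequence runs 5′ to 3′ on the strand of its gene, over the 250 bases before the start site, and is printed only up to the first annotated exon of the gene. Motifs were searched in the full 250 bases, for members and for all promoters alike. Capitals mark the MEF2 site in *Ttn* (chr2:76982548-76982797, minus strand) and *Mybpc3* (chr2:91117894-91118143, plus strand), and the CArG box bound by SRF in *Ldb3* (chr14:34588683-34588931, minus strand) and *Myom1* (chr17:71019307-71019520, plus strand). The *Myom1* start lies 16.9 kb inside the GENCODE model of the gene, which also holds transcripts that begin further upstream.
Ttn: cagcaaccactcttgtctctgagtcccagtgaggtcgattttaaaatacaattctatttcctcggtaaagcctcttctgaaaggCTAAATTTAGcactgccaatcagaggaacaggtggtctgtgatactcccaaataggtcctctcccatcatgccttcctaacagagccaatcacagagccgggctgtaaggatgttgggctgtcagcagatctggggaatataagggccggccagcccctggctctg
Mybpc3: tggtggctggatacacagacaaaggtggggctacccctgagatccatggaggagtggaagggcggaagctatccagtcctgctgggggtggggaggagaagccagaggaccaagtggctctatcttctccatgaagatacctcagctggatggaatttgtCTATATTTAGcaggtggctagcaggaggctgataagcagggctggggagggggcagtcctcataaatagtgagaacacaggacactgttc
Ldb3: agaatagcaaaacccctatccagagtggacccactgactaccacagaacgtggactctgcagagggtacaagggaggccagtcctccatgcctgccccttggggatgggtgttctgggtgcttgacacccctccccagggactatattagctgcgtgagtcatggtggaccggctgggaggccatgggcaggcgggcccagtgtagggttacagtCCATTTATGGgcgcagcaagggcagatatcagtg
Myom1: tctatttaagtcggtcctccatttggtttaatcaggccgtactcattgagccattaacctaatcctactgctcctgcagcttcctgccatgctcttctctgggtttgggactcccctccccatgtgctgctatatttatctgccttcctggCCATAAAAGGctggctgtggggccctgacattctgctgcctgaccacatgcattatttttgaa

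The MEF2 site began 166 bases before the start of *Ttn* and 90 before that of *Mybpc3*, so that 2 of the 8 member promoters held one on either strand, against 2.92% of 32851 promoters. A CArG box began 35 bases before the *Ldb3* start shown and 99 before the internal *Myom1* start. It was in 3 of 8, counting both overlapping *Ldb3* windows, against 1.47%. None of the 8 member promoters had TATAAA on the gene's strand (7.59% of all promoters) or CATTCC on either strand (12.6%), the core of the site for TEAD factors. On either strand, GATAA was found in 2 of 8 (22.6%) and CANNTG in 6 of 8 (66.2%). These matches describe letters in a window and not bound sites.

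Titin and its thick-filament neighbour came first in read count. *Ttn* (chr2:76703980-76982547, minus strand) encodes the giant elastic protein that spans from Z-disc to M-band. Its principal coding transcript, Ttn-204 in GENCODE M21, has 312 exons and 100404 bases and would give a protein of 33467 residues. The mean normalized count was 24377 in wild type and 24853 in the null, a log2 ratio of 0.028 with a 95% interval of 0.016 to 0.039 from counting error alone. *Mybpc3* (chr2:91118144-91136516, plus strand), cardiac myosin-binding protein C of the thick filament, had 26145 and 26839, a log2 ratio of 0.038 (0.027 to 0.049). In wild type the pair ranked 25 and 23 among protein-coding genes. *Mybpc3* was ahead by count in both genotypes, and length widened the gap. Per kilobase of transcript *Mybpc3* stood at 6280 in wild type and *Ttn* at 243. Thus *Mybpc3* was 25.9 times higher per kilobase in wild type and 26.05 times in the null.

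**Figure D1:**
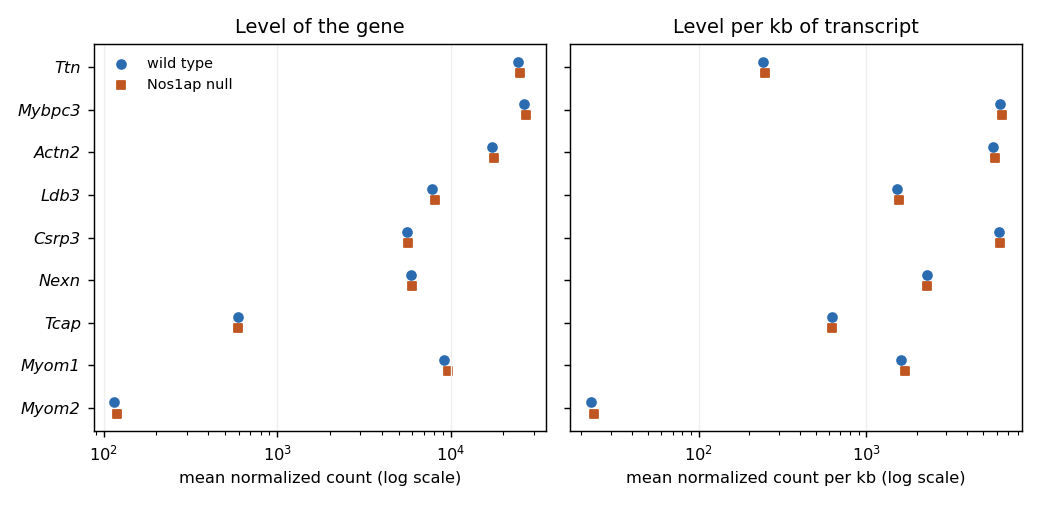
Mean normalized count of each member (left) and the same per kilobase of its principal coding transcript (right), both on a log axis, for wild type (circles) and *Nos1ap* null (squares), with no error since the table gives 1 mean per genotype. Circle and square lie side by side for every gene, while *Ttn* drops from 24377 by count to 243 per kilobase in wild type.

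At the Z-disc, *Actn2* and *Ldb3* were the most abundant members by read count. *Actn2* (chr13:12269426-12340760, minus strand), the muscle alpha-actinin that cross-links actin filaments, averaged 17207 normalized counts in wild-type hearts and 17563 in null hearts, a log2 ratio of 0.030 (0.016 to 0.043). *Ldb3* (chr14:34526603-34588682, minus strand), a PDZ and LIM protein also called Cypher or ZASP that binds alpha-actinin, had 7762 and 8032, a log2 ratio of 0.049 (0.029 to 0.070). Their counting intervals lie above 0, but they leave out the spread between animals.

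The smaller Z-disc proteins showed ratios closer to 0. *Csrp3* (chr7:48830398-48848033, minus strand) encodes muscle LIM protein, a stretch sensor, and had 5549 and 5636, a log2 ratio of 0.023 (-0.001 to 0.046). *Nexn* (chr3:152236982-152266350, minus strand) encodes nexilin, an actin-binding protein, and had 5897 and 5931, a log2 ratio of 0.0082 (-0.015 to 0.031). Both counting intervals hold 0. An unnamed model on the same strand, *Gm43185*, overlaps *Nexn* and was listed at 279 and 284, so reads could be split between them.

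*Tcap* (chr11:98383811-98384953, plus strand) encodes telethonin, the small protein that caps titin at the Z-disc. Wild-type libraries 1 to 5 had 651, 584, 498, 601 and 617 normalized counts, from 748, 603, 489, 582 and 596 reads. The null libraries had 554, 697, 589, 522 and 609, from 616, 693, 584, 486 and 559 reads. *Tcap* was recovered with at most 0.01 sets of counts expected by chance, but not with at most 0.001. The groups overlapped, with 498 to 651 in wild type and 522 to 697 in the null, and both the highest and the second-lowest values were null libraries. The means were 590 ± 57.1 (SD, n = 5) and 594 ± 66.3 (SD, n = 5), and the exact permutation test gave p = 0.921. On the log2(normalized count + 1) scale the difference was 0.0092 ± 0.078 (SE), with a 95% interval from -0.16 to 0.18 and adjusted p = 0.998 by limma. The lowest wild-type value belonged to library 3, the one with the added neural and *Myh3* reads. Without it the log2 fold change was -0.051.

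At the M-band, *Myom1* was the member with the largest ratio. *Myom1* (chr17:71002633-71126856, plus strand) encodes myomesin 1, the main cross-linker of thick filaments, and averaged 9167 in wild-type hearts and 9605 in null hearts, a log2 ratio of 0.067 (0.049 to 0.086 from counting error). Among genes averaging 1000 or more, 13.2% had a larger absolute log2 ratio. *Myl12a*, on the opposite strand, overlaps the gene model and had 4505 and 4445. The kit was stranded and the authors set RSEM to use the strand.

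*Myom2* (chr8:15057653-15133541, plus strand) encodes M-protein, a myomesin relative that is known to mark adult heart and fast skeletal muscle, and it was the lowest member. Its normalized counts were 102, 153, 102, 106 and 112 in wild-type libraries 1 to 5, from 117, 158, 100, 103 and 108 reads. In the null libraries they were 131, 82.5, 113, 157 and 117, from 145, 82, 112, 146 and 107 reads. A single wild-type library, number 2, lay far above the other 4, and the null libraries spread over a wider range that took in every wild-type value. The means were 115 ± 21.7 (SD, n = 5) and 120 ± 27.1 (SD, n = 5), with p = 0.770 in the exact permutation test. The log2 fold change was 0.047 ± 0.15 (SE), with a 95% interval from -0.27 to 0.37 and adjusted p = 0.998 by limma. Thus 0 of the 2 tested members were called at FDR 1% and an absolute log2 fold change over 1, where 0.0292% of 10278 genes were. At an unadjusted p under 0.05 it was also 0 of 2, against 3.56% of the genes.

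**Figure D2:**
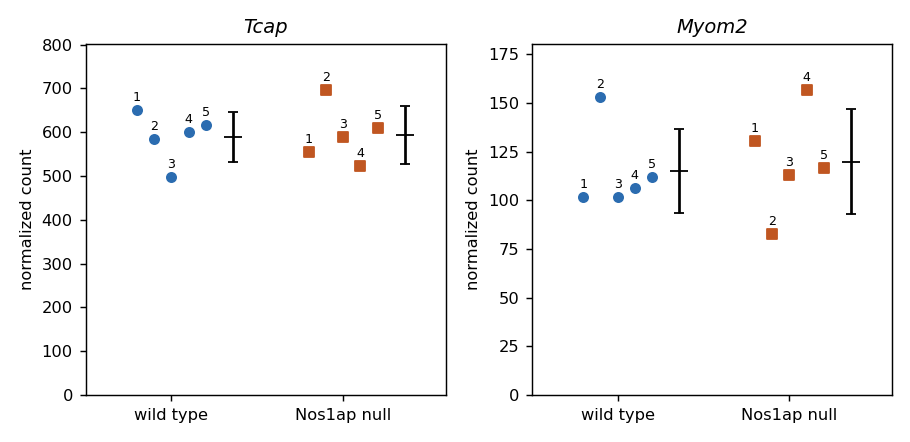
Normalized count of *Tcap* (left) and *Myom2* (right) in each recovered library, numbered by size factor within its genotype, with the mean and SD of 5 libraries beside the points; axes start at 0. The genotypes overlap for both genes, and wild-type library 2 stands alone at 153 for *Myom2*.

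The pair of recovered members did not follow each other from heart to heart. Null library 2 had the highest *Tcap* and the lowest *Myom2* of its group, and null library 4 the reverse. Over all 10 libraries, which share the same normalization, Pearson's r between them was -0.562, given as a description. The genes whose log2(normalized count + 1) followed that of *Tcap* most closely, of 8366 compared, were *Iba57* (r = 0.933), *Sephs2* (r = 0.921) and *Lamtor5* (r = 0.918). For *Myom2* they were *Rnf13* (r = 0.966), *Sox18* (r = 0.958) and *Ddx3y* (r = 0.952). None is a sarcomere gene, and these are the highest values of a search over 8366 genes with only 10 libraries.

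Read together, the 9 ratios were small and all above 0. The log2 ratio exceeded 0 in 9 of 9 members, with a median of 0.030. Among genes averaging 1000 or more, the level of 7 members, 55.8% exceeded 0 and the median was 0.0057. Among those averaging 10 or more, which take in *Tcap* and *Myom2*, 49.5% did. Centring the table on its median moved every ratio by 0.0015 and left all 9 above 0. The 9 genes are not independent measurements, since they were read from the same hearts and mark the same cells. Of 8 cardiomyocyte markers 6 had a ratio above 0, from -0.065 for *Nppa* to 0.15 for *Ryr2*, and their sum had a log2 ratio of 0.026. The summed markers had log2 ratios of 0.26 for erythroid, 0.10 for epicardial, 0.040 for endothelial, -0.036 for myeloid, -0.045 for smooth muscle and -0.062 for mesenchymal cells. Single markers within a sum did not all go its way. A ratio above 0 was seen in 4 of 5 erythroid, 3 of 3 epicardial and 3 of 5 endothelial markers. The same held for 1 of 3 myeloid, 0 of 4 smooth muscle and 2 of 4 mesenchymal markers. Neural markers, high in wild-type library 3, had -1.42. The part of cell composition in the members' ratios was not tested. In size, 4 of the 7 abundant members exceeded 0.029, the median absolute log2 ratio of genes averaging 1000 or more, and all 7 lay within the central 95% of those genes, from -0.074 to 0.11. Genes averaging 10 or more had a median absolute log2 ratio of 0.049 and a central 95% from -0.38 to 0.25, and of *Tcap* and *Myom2* only *Myom2* exceeded that median. For scale, 2208 recovered genes with means from 500 to 1000 were taken. Their median standard error was 0.048 for a difference between 5 and 5 libraries. The recovery misses genes with a wide spread between libraries, so this median may be too low. Every member but *Ldb3*, *Myom1* and *Myom2* had a ratio below 0.048, which is no error of the members themselves.

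**Figure D3:**
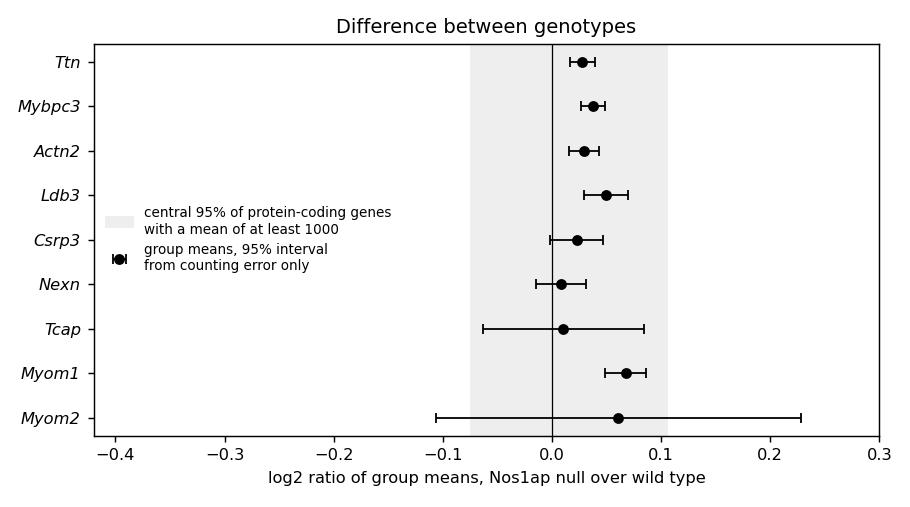
Log2 ratio of the group means, *Nos1ap* null over wild type, for each member, with a 95% interval from counting error only, against the central 95% of protein-coding genes averaging 1000 or more (grey). The grey band is the reference for the 7 abundant members only, since *Tcap* and *Myom2* lie below 1000. All points lie between 0 and 0.07, and 5 intervals lie wholly above 0.

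Levels were compared between genes per kilobase of the principal transcript in GENCODE M21. In wild type the order was *Mybpc3* at 6280 normalized counts per kilobase, *Csrp3* at 6172, *Actn2* at 5711, *Nexn* at 2300, *Myom1* at 1623, *Ldb3* at 1516, *Tcap* at 622, *Ttn* at 243 and *Myom2* at 22.6. No spread between animals is known for 7 of them, so whether neighbours such as *Mybpc3* and *Csrp3* differ cannot be said. The order also depends on the length used. With the length over all annotated exons, *Csrp3* was 2.97 times lower, at 2077, and *Nexn* and *Myom1* came to 1541 and 876. The null kept the same order by the principal transcript.

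Each structural family was led by its cardiac member in both genotypes, with shares of like size. Among the myomesins *Myom1* made up 98.6% of the summed level per kilobase in wild type and 98.6% in the null, and it stood 71.7 and 72.0 times above *Myom2*. Among the myosin-binding proteins *Mybpc3* took 95.7% and 95.5%, followed by *Mybphl*, which is known from atrial and conduction muscle, with 3.82% and 3.99%. *Actn2* made up 71.5% and 71.8% of the alpha-actinins, beside the non-muscle forms *Actn4* (15.5% and 15.2%) and *Actn1* (12.8% and 12.7%). *Csrp3* made up 62.0% and 63.2% of the cysteine- and glycine-rich proteins. With all annotated exons its share was 39.8% and 41.1%, below that of *Csrp1* (43.6% and 43.1%), which is known from smooth muscle.

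**Figure D4:**
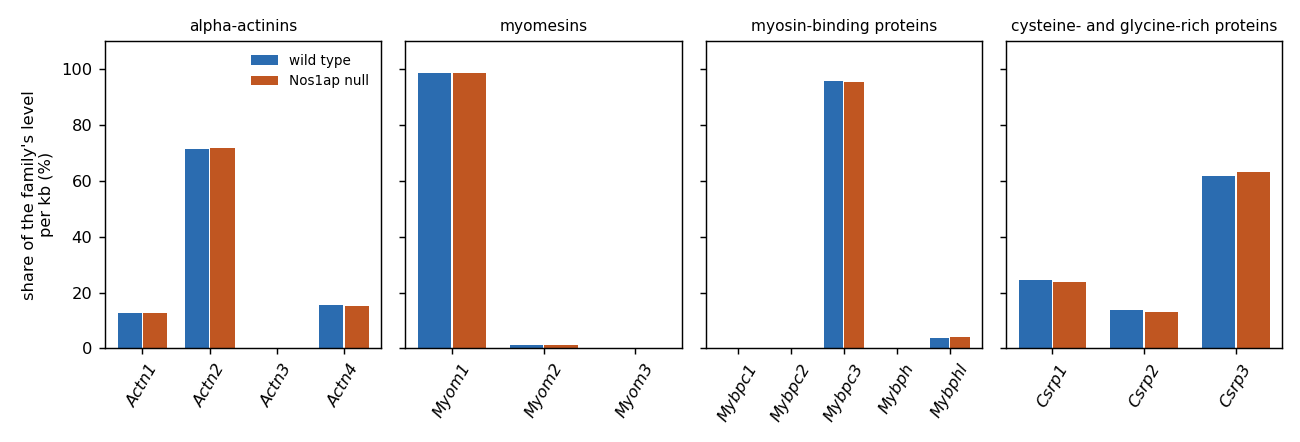
Share of each gene in the summed level per kilobase of its family, in percent from 0, for wild type (blue) and *Nos1ap* null (orange), from group means and principal transcripts. *Myom1* and *Mybpc3* take over 95% of their families and *Actn2* about 71%, with bars of like height in both genotypes.

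The list of paralogs held 13 genes and also took in *Myoz1*, *Myoz2* and *Myoz3*, calsarcins that belong to none of the members' families. Of the 13 genes, 10 had a mean of at least 10 and 5 could be tested, of which limma called 0. Among the 10, 6 had a log2 ratio above 0 (49.5% of all genes averaging 10 or more did) and the median was 0.0060. *Actn1* (3823 and 3851 normalized counts), *Actn4* (4791 and 4778) and *Myoz2*, the cardiac calsarcin (1324 and 1325), had log2 ratios of 0.011, -0.0041 and 0.0011. *Csrp1* had 4450 and 4328, and *Csrp2* 1877 and 1774, the latter a log2 ratio of -0.081. The genes of this list that are mainly known from skeletal muscle were low: *Actn3* at 59.4 and 63.2, *Mybpc1* at 74.1 and 69.2, *Mybpc2* at 43.4 and 45.4, and *Myoz1* at 114 and 118. *Mybphl* had 320 ± 73.6 (SD, n = 5) and 344 ± 49.2 (SD, n = 5), a log2 fold change of 0.13 ± 0.17 (SE, limma, adjusted p = 0.998). *Mybpc1* ran from 59.2 to 103 among wild-type libraries and reached down to 28.2 and up to 88.7 among null ones.

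*Myom3*, *Mybph* and *Myoz3* had means below 10. *Myom3* had 5, 6, 12, 3 and 3 reads in wild type and 1, 6, 1, 3 and 3 in the null, and *Mybph* had 4, 3, 15, 7 and 4 against 2, 3, 4, 4 and 5. The highest value of each was in wild-type library 3, where *Myh3*, *Myod1*, *Myog*, *Pax7* and *Mylpf* were also highest. Other skeletal muscle markers peaked elsewhere. *Actn3* was highest in wild-type library 1, at 87.0 normalized counts against 63.1 in wild-type library 3. *Tnnt3* and *Tnni2* were highest in null library 2, at 113 and 260 against 81.4 and 229 in wild-type library 3. The part of skeletal muscle cells in wild-type library 3 was not tested. *Myoz3* had 1 read in 1 library of each genotype. The 8 of 9 skeletal muscle markers in the table, of which *Actn3* is also a paralog, summed to between 327 and 577 normalized counts per wild-type library, and the range over null libraries was 360 to 531.

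The wider set of partners held no gene past the threshold either. Of 89 distinct genes in the lists, 84 had a mean of at least 10, and 0 of these passed an absolute log2 ratio of 0.25, where 6.68% of genes averaging 10 or more and 0.725% of those averaging 1000 or more did. Their median was 0.023. Of the 17 that could be tested, limma called 0 (0.0292% of all genes tested) and 0 had an unadjusted p under 0.05 (3.56%), and so few genes say little at these shares. Genes named from here on were picked after their values were seen. Among 37 measured Z-disc partners, 24 had a ratio above 0, against 49.5% of all genes averaging 10 or more and 55.8% of those averaging 1000 or more, and the median was 0.025. *Flnc*, the muscle filamin, had 11636 and 12187 normalized counts (log2 ratio 0.067), *Ankrd1*, a stretch-responsive titin-binding ankyrin protein, 9566 and 10242 (0.098), and *Des*, the intermediate filament desmin, 8633 and 8593 (-0.0066). The top of the list was *Xirp2* (23.2 and 27.1, log2 ratio 0.23), with a limma log2 fold change of 0.29 ± 0.22 (SE) and adjusted p = 0.998.

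Among 20 measured M-band and titin partners, 13 had a ratio above 0, with a median of 0.032. The share above 0 was 49.5% of all genes averaging 10 or more and 55.8% of those averaging 1000 or more. The ubiquitin ligases *Trim63* and *Trim55*, which bind titin near the M-band, had 1065 and 1106 and 3144 and 3320. *Lmod2*, a thin filament elongation factor, had the highest ratio of that list at 0.13 (1213 and 1329).

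Factors that splice or transcribe these genes were measured as well. *Rbm20*, the splicing repressor of titin exons, had 2012 and 2105 normalized counts (log2 ratio 0.065). The 12 splicing regulators had a median log2 ratio of 0.019, from -0.20 for *Rbfox1* (72.5 and 63.0, limma log2 fold change -0.20 ± 0.13 SE, adjusted p = 0.998) to 0.11 for *Srsf5*. Gene-level values do not show which exons were used. Of the 10 transcription factors 8 had a ratio above 0, with a median of 0.036. Among all genes averaging 1000 or more 55.8% were above 0, and 49.5% among those averaging 10 or more. *Srf*, whose product binds the CArG box, had 2020 and 2106 (0.060), and *Mef2a*, *Mef2c* and *Mef2d* had ratios of 0.083, 0.055 and 0.037. *Gata4*, *Tbx5* and *Tead1* lay at 0.035, 0.072 and 0.034, and *Nkx2-5* and *Hand2* at -0.035 and -0.046.

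**Figure D5:**
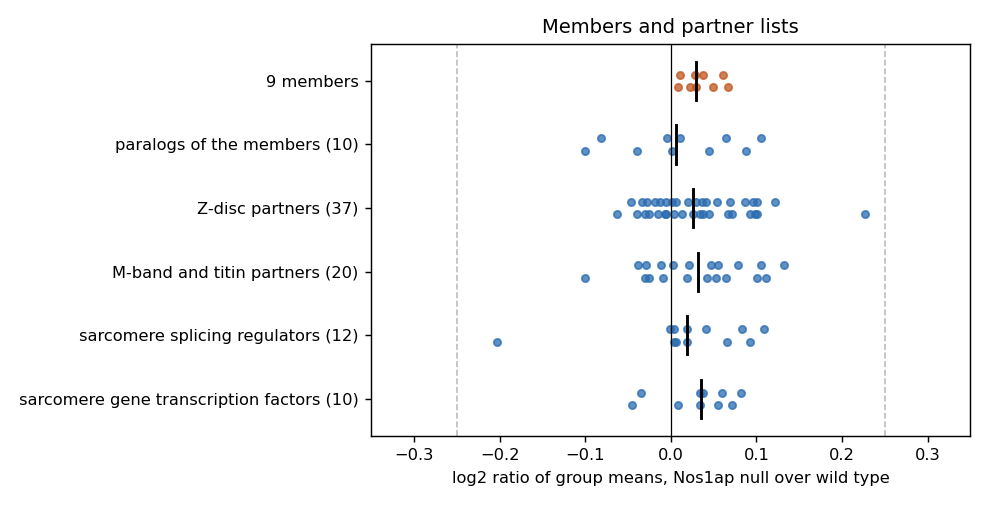
Log2 ratio of the group means, *Nos1ap* null over wild type, for the 9 members (orange) and the measured genes of 5 lists (blue; number of genes in brackets), with the median of each as a black bar and dashed lines at 0.25 in either direction. All points lie between the dashed lines, from *Rbfox1* at -0.20 to *Xirp2* at 0.23.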

How the data were processed

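RNA was prepared from E13.5 hearts, made into stranded poly-A libraries and sequenced as paired 100-base reads. The authors trimmed reads with Trimmomatic 0.36, mapped to GRCm38 with STAR, estimated gene counts with RSEM 1.2.31 and ran DESeq 1.24.0. The deposited signal used here is the DESeq mean of size-factor-normalized counts in each genotype (2 columns), and the authors' fold changes and p-values in the same table were not used. Counts of single libraries were recovered from those means, for means below 1000, by a lattice search for whole numbers. The search covered a distance around equal normalized counts within a genotype, in which at most 0.01 sets were expected by chance. A set was kept where it was the only one within that distance. Sets beyond it were not searched. Of 23195 genes, 98.7% (wild type) and 98.8% (null) of means below 1000 gave a set. Recovered libraries cannot be tied to sample labels.

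Tests were limma 3.58.1 (trend, robust, R 4.3.3) on log2(normalized count + 1) over 10278 protein-coding genes with a mean of at least 10, with Benjamini-Hochberg adjustment, and a two-sided exact permutation test for single genes (scipy 1.17.1). The fold understates changes of low genes. Genes above the limit have no test. Intervals are exact binomial on summed counts estimated from the mean, at 95%, and cover counting error only. Gene models came from GENCODE M21 and the same build. The recovery and limma steps were tested on simulated data. The simulation of the recovery used a small spread between libraries, so outlying libraries such as the one high in *Myh3* were not covered. Members, lists and tests were chosen with earlier results of these data known. All members, *Nos1ap*, the list of paralogs and, for *Tcap* and *Myom2*, the 3 genes (mean of at least 50) with the highest r were to be named. List genes past the fold were to be named too. Alternatives covered pseudocount, threshold, filter, scaling, weights, recovery rule and left-out libraries.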

Additional observations from a re-analysis of the deposited data

Results flagged for a closer look

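*Myom2* in wild type was flagged because 1 library, number 2, lay at 153 normalized counts (152.945) while the other 4 lay between 102 and 112. The gap took 0.806 of the range of the group. *Myoz1* in the null was flagged because library 1 lay at 127 (126.906) with the other 4 between 114 and 117, where the gap took 0.781 of the range. Of 16 groups checked, over 8 genes with a mean of at least 10, 2 were flagged, and chance flags about 1 group in 20.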

How the results depend on the processing

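No member passed the fold threshold under the alternatives tried, which were thresholds of 0.1 and 0.5, centring and a pseudocount of 1. Calls could be made only for *Tcap* and *Myom2*, since the other 7 members have no test. Neither was called with a filter at 50 or none, an FDR of 5% without a fold threshold or voom weights. The 9 ratios of group means stayed above 0 with centring and with the pseudocount. Leaving out 1 library at a time moved the log2 fold change of *Tcap* from -0.051 to 0.054, and it was below 0 without wild-type library 3 (-0.051), null library 2 (-0.050) or null library 5 (-0.0013). That of *Myom2* ran from -0.056 to 0.17 and was below 0 without null library 4 (-0.056). The exact p ran from 0.540 to 1 for *Tcap* (0.619 without wild-type library 3 and 0.540 without null library 2, both with the difference below 0) and from 0.333 to 0.937 for *Myom2* (0.778 without null library 4, with the difference below 0). *Nos1ap* kept a log2 fold change between -1.88 and -1.75. With at most 0.001 sets expected by chance, *Tcap* was not recovered and has no value. Length over all annotated exons, an alternative chosen after seeing the data, moved the wild-type level per kilobase to 209 for *Ttn*, 4534 for *Actn2*, 1271 for *Ldb3*, 2077 for *Csrp3*, 1541 for *Nexn*, 876 for *Myom1* and 13.0 for *Myom2*. No paired analysis was possible because the recovered libraries carry no replicate number. Depth limits *Myom2*, with 586 and 593 summed reads, more than the other members.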
